A study of Homo sapiens with 9 samples.

Results

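Depletion of UHRF1 alone was examined on 4 of the 9 microarrays of the series: 2 arrays of RKO cells transfected with siRNAs against UHRF1 (siUHRF1-1 and siUHRF1-2, one array each) and 2 arrays of RKO cells transfected with a control siRNA (siCONT). RKO is an established human colorectal cancer cell line. All 4 cultures carried siRNA for 72 h and then received mock treatment for 24 h, so none of them saw a drug. Of the other arrays, 4 carried the same siRNAs followed by 24 h with 300 nM trichostatin A (TSA, a histone deacetylase inhibitor), with 2 arrays in each group, and 1 was hybridized with RNA of RKO cells given 1 µM 5-aza-2'-deoxycytidine (5-aza-dC, a DNA demethylating agent) for 72 h without siRNA. The comparison asks which genes changed when UHRF1 was depleted with no drug added, and which of them moved with both siRNAs. The 2 siUHRF1 arrays differ in their siRNA, so their spread holds both culture and siRNA, and the labels do not say whether the cultures were separate experiments, so the p-values measure only the spread between these samples.

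UHRF1 is a multidomain protein that binds hemimethylated CpG sites behind the replication fork and recruits the maintenance methyltransferase DNMT1, so that the methylation pattern is copied to the new strand. It also reads methylated histone H3 and ubiquitinates histones. In cancer cells, loss of maintenance methylation is known to release germline-restricted genes, above all the cancer-testis antigens, a set of mostly X-linked gene families that are read in the testis and silent in other adult tissues. The MAGE, GAGE, XAGE, PAGE, SPANX, SSX and CTAG (NY-ESO-1) families belong to it.

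Signals are given as log2 of the Agilent processed signal minus the 75th percentile of that array, so a level of 0 is the signal of a fairly bright probe and one unit is a doubling. Levels of different probes are not compared. In each array 44.7% to 46.6% of the probes were well above background in the 4 arrays without TSA, and no spot was saturated. The median absolute difference between arrays was 0.0699 for the siCONT pair and 0.261 for the siUHRF1 pair. Of the intestinal epithelium markers, 8 of 18 were tested: the keratin KRT18 lay between 5.42 and 5.80 and the intestinal transcription factor CDX2 between 1.40 and 1.49 on the 4 arrays, whereas EPCAM and CDH1 did not pass the filter on dim probes.

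UHRF1 itself was lower with both siRNAs. Its brighter probe read 2.69 on both siCONT arrays, 0.36 with siUHRF1-1 and 0.07 with siUHRF1-2. The fitted difference was -2.47 (SE 0.141, limma adjusted p = 0.00238), and the second UHRF1 probe gave -2.34 (SE 0.155, adjusted p = 0.00363). The partner and the paralog of UHRF1 did not pass the test. DNMT1 read 2.13 and 2.06 on the siCONT arrays and 2.08 and 2.10 on the siUHRF1 arrays, and UHRF2, the paralog, differed by -0.15 (SE 0.130, adjusted p = 0.838). The reference genes ACTB and GAPDH differed by -0.05 and -0.12 and did not pass either, and the sign of ACTB and of DNMT1 turned under other scalings.

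Few probes were called besides those of UHRF1, and nearly all of them were higher. Of 23730 probes tested, 132 passed an adjusted p of 0.05 (0.556%), of which 123 were higher (0.518%) and 9 lower (0.0379%). On all 132 the 2 siUHRF1 arrays lay on one side of both siCONT arrays. The calls were made on these same arrays, so this is no separate support. The share over all probes tested was not counted. By size alone, 236 probes (0.995%) were over 2-fold higher with both siRNAs than on either siCONT array and 15 (0.0632%) were over 2-fold lower. Of these, 116 and 6 were among the called probes. Taken singly, siUHRF1-1 put 327 probes over 2-fold above both siCONT arrays and 192 below, and siUHRF1-2 put 479 above and 88 below. The number of falls depended on single arrays. It was 73 without the first siCONT array, 156 without the second, 48 without siUHRF1-2, and 4 and 5 without either siUHRF1 + TSA array, which share the estimate of spread. With another background correction (normexp with an offset of 50, which draws dim probes together), 9 probes were called, 7 of them higher and 2 lower, and all 9 were among the 132.

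Most of the rises were of transcripts that were not measurable in control cells. Of the 123 probes, 89 were well above background on neither siCONT array. Of these 89, 65 were above background on both siUHRF1 arrays, 8 on one and 16 on none. Over the whole array, 26984 probes were above background on neither siCONT array, and 378 of them came up on both siUHRF1 arrays, while 67 of the 21998 probes above background on both siCONT arrays were above it on neither siUHRF1 array. For the 65 probes the control level is only a bound, so that the rise is given as a lower limit. This limit ran from 1.12-fold to 49.4-fold with a median of 2.52-fold. The filter admitted such probes through a group in which they were high, so their number is a description. Among the 21593 probes above background on all 4 arrays, 99.5% differed by less than 1 unit, 32 were called higher by 0.75 to 4.54 units, and 3 were called lower.

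**Figure D1:**
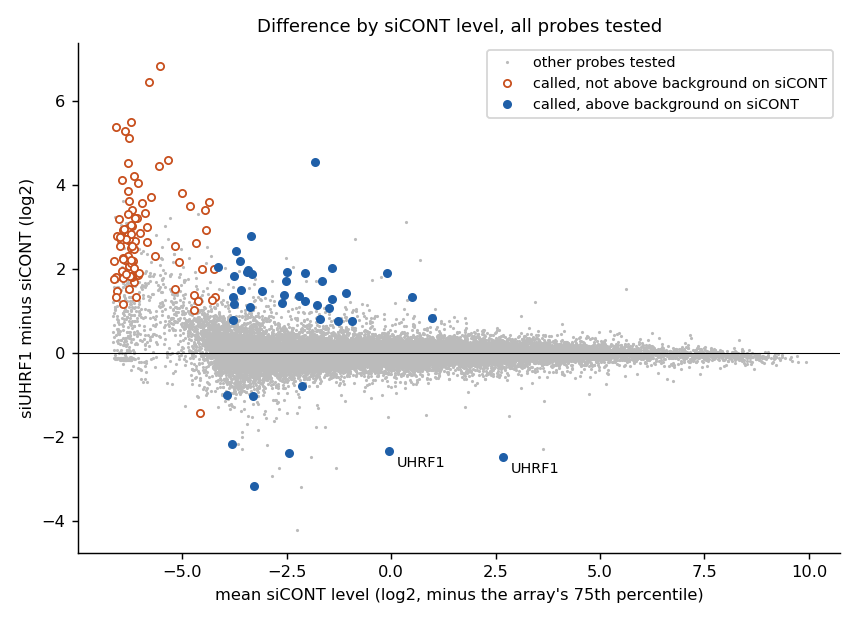
Difference between siUHRF1 and siCONT (vertical axis, log2) against the mean siCONT level (horizontal axis, log2 minus the 75th percentile of the array) for the 23730 probes tested; open circles are called probes above background on neither siCONT array and filled circles are called probes above it on at least 1. The called rises crowd at the dim end, the bulk of brighter probes lies near 0, and the UHRF1 probes stand at -2.47 and -2.34.

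Cancer-testis antigens rose with both siRNAs, by fitted differences that rest, for most of them, on control signals not above background. GAGE12F, a member of the GAGE family, read -5.27 and -5.78 on the siCONT arrays, 1.25 with siUHRF1-1 and 1.37 with siUHRF1-2. It was at least 49.4-fold higher (adjusted p = 0.00819). CTAG1A, one of the copies that encode the tumor antigen NY-ESO-1, read -5.35 and -6.26 in siCONT and 0.04 and 1.26 in siUHRF1. It was at least 31.4-fold higher (adjusted p = 0.0085). XAGE1A went from -6.43 and -6.32 to -1.89 and -0.30, at least 9.34-fold (adjusted p = 0.00861). In these genes neither siCONT array was above background, both siUHRF1 arrays were, and siUHRF1-2 gave the higher level. GAGE2B was already measurable in control cells, at -1.60 and -2.03, and stood at 2.48 and 2.98 after depletion. Its difference of 4.54 (SE 0.216, adjusted p = 0.00132), or 23.3-fold, is a measured fold and no bound.

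Probes of 3 cancer-testis genes called higher are shown because these families consist of near-identical copies, so that a 60-base probe may read several copies, which cannot be told apart; positions are those of the array design on hg19 (chrX:49218341-49218400, chrX:52241141-52241200 and chrX:153880418-153880477).
GAGE12F: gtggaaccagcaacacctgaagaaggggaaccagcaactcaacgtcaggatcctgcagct
XAGE1A: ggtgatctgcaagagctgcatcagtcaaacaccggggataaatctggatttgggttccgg
CTAG2: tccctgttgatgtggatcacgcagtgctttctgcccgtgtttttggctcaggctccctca

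Of 56 cancer-testis genes listed, 42 were found on the array by their symbol and 29 were tested. Of these, 9 rose and none fell, against 0.607% higher and 0.0337% lower of the 17781 gene names tested, each read by its brightest probe. GAGE2B, whose symbol is not on the list, is not among the 9. Of the 818 tested gene names above background on neither siCONT array, 75 were called higher. The median difference over the 29 genes was 1.40, against -0.0013 over all gene names. Of the 29 differences, 24 were above 0, against 8834 of 17781 gene names. With the normexp correction 2 of the 29 were called and the median was 0.12. Only 19 of the 42 genes on the array were above background on any of the 4 arrays, so the median of 1.40 includes signals at the background, and members had partly been admitted by groups in which they were high. CTAG2, a relative of CTAG1A, was at least 8.90-fold higher (adjusted p = 0.0219), and MAGEA2B at least 3.16-fold (adjusted p = 0.00339). MAGEA4 was at least 1.12-fold higher (adjusted p = 0.00363). MAGEA9 was above background on 1 of the 2 siUHRF1 arrays. MAGEB6 and PAGE1 were above background on none of the 4 arrays, so no fold is given for them although both passed the test. SPANXB1 had 2 probes: the brighter one differed by 2.21 (adjusted p = 0.151) and the dimmer one by 2.86 (adjusted p = 0.0082). Members measured on all 4 arrays that did not pass included SSX2, with a difference of 0.19, SSX3 with -0.22 and MAGEA6 with -0.01. SSX4B, whose symbol is not on the list, differed by 1.89 and 1.33 at probes that were called. At another probe, not called, it differed by -0.0042. None of these SSX4B probes was above background on any of the 4 arrays.

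Of the 53 listed germline genes outside the multicopy families, 20 were tested. Of these, 2 rose (10.0%, against 0.607% of all gene names) and none fell, with a median difference of 0.26. Both were above background on neither siCONT array, and of 818 tested gene names of that kind 75 were called higher. They passed the filter through groups in which they were high, so their number is a description. With the normexp correction 0 of the 20 were called and the median was 0.08. SOHLH1, a transcription factor of spermatogonial differentiation, read -6.29 and -6.25 in siCONT and -1.59 and -0.73 in siUHRF1, at least 8.95-fold (adjusted p = 0.00194). TKTL1, a transketolase-like enzyme, went from -4.63 and -4.11 to -1.25 and -0.31, at least 11.0-fold (adjusted p = 0.00897). Both came up with both siRNAs without overlap. The meiotic cohesin gene STAG3, already read in RKO cells, differed by 0.04 (adjusted p = 0.976).

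**Figure D2:**
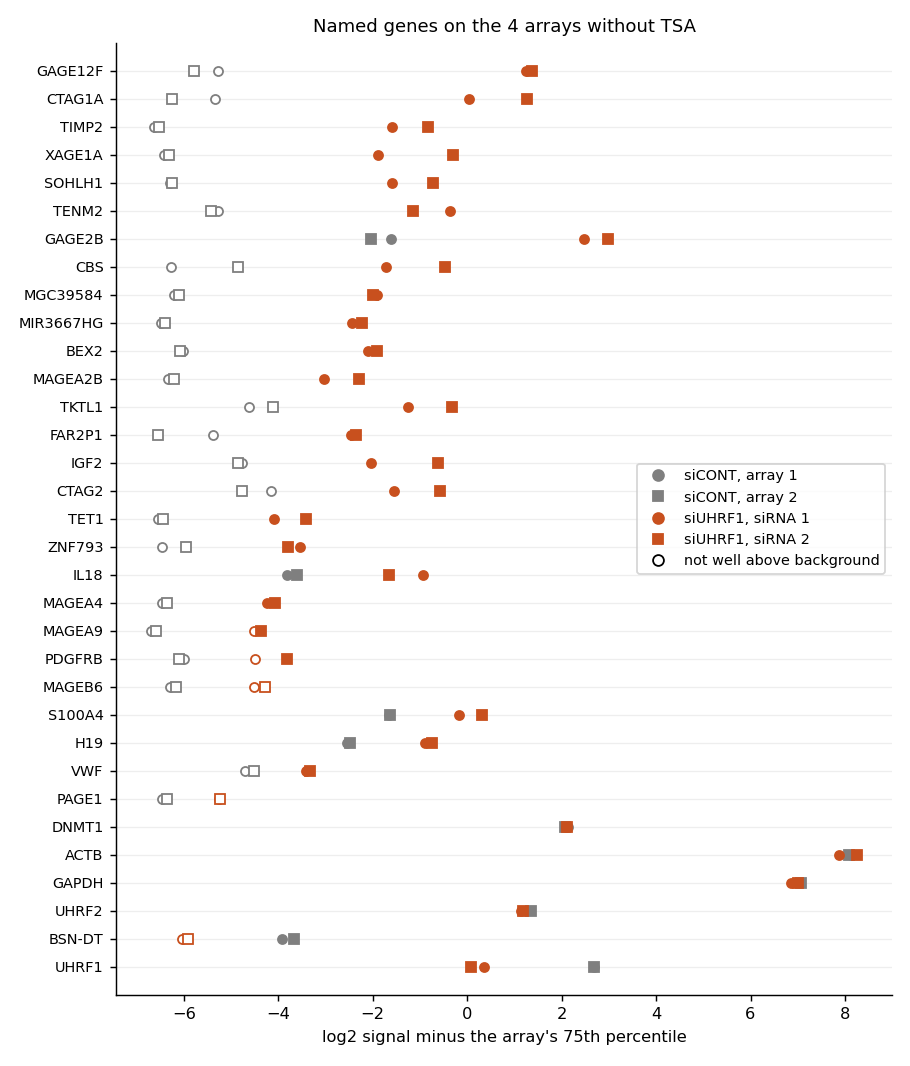
Level (log2 signal minus the 75th percentile of the array) of the 33 named genes on each of the 4 arrays without TSA, ordered by their difference; grey symbols are siCONT, orange symbols siUHRF1, circles the first and squares the second array or siRNA, and open symbols are spots not well above background. The groups overlap for DNMT1 and ACTB and lie apart for the other genes, by the least for GAPDH and UHRF2, which did not pass the test.

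Several rises were of genes with other functions. TIMP2, an inhibitor of matrix metalloproteinases, read -6.64 and -6.53 on the siCONT arrays and -1.60 and -0.83 on the siUHRF1 arrays, at least 8.62-fold (adjusted p = 0.00161). TENM2, a teneurin of the cell surface, rose at least 11.9-fold (adjusted p = 0.00246), and its second probe rose too. CBS, which makes cystathionine from homocysteine and serine, was at least 9.31-fold higher (adjusted p = 0.033). BEX2, an X-linked gene of the brain-expressed family, was at least 4.96-fold higher (adjusted p = 0.00129). Neither siCONT array was above background for these 4 genes, and both siUHRF1 arrays were. MGC39584, MIR3667HG and FAR2P1, which are named here only by their symbols, were at least 5.20-, 3.95- and 3.77-fold higher. A second FAR2P1 probe differed by 0.48 (adjusted p = 0.786) and a second MGC39584 probe by 2.20 (adjusted p = 0.150), so these genes did not read alike at all their probes.

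Imprinted genes were represented by the neighbours IGF2 and H19 on chromosome 11, a growth factor and a noncoding RNA that are normally read from opposite parental copies. H19 read -2.55 and -2.48 in siCONT and -0.90 and -0.73 in siUHRF1, a difference of 1.70 (SE 0.136, adjusted p = 0.00756), or 3.25-fold. Its second probe differed by 1.26 (adjusted p = 0.0594). IGF2 went from -4.76 and -4.86 to -2.03 and -0.62, at least 7.96-fold (adjusted p = 0.0285), and its other probe was above background on none of the 4 arrays. These were 2 of 20 imprinted genes tested (10.0%, against 0.607% of all gene names). The other 18 did not pass, among them CDKN1C at 0.22 and MEG3 at -0.08, and the median of the list was 0.04. IGF2 was above background on neither siCONT array and passed the filter through groups in which it was high. Of 818 tested gene names above background on neither siCONT array, 75 were called higher.

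Of the enzymes and readers of DNA methylation, 21 were tested. TET1, which oxidizes methylated cytosine, was the gene that passed (4.76%, against 0.607% of all gene names). TET1 was above background on neither siCONT array, and of 818 tested gene names of that kind 75 were called higher. It read -6.54 and -6.45 in siCONT and -4.08 and -3.40 in siUHRF1, at least 1.49-fold (adjusted p = 0.0082), and 2 other TET1 probes were above background on none of these arrays. DNMT3B differed by 0.25 and HELLS by -0.15, and neither passed. No gene passed among 23 genes of repressive histone methylation, with a median of -0.02, or among 17 histone deacetylases, with a median of 0.04. For these lists limma called 0 genes, and at an unadjusted p below 0.05 there was 1 and 0. None of 73 histone genes passed, and 5 were higher at an unadjusted p below 0.05. H1-1 had the largest difference of them, 3.23 (adjusted p = 0.056).

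Of 17 silenced or methylator-phenotype genes that the study itself named, 8 were tested and IGF2 passed (12.5%, against 0.607% of all gene names). IGF2 was above background on neither siCONT array, and of 818 tested gene names of that kind 75 were called higher. The 17 genes were picked by the study for silencing in such cells, so their count is no independent evidence. CDKN2A, the p16 tumor suppressor, read -1.55 and -1.34 in siCONT and -1.39 and -0.78 in siUHRF1, and the difference of 0.36 did not pass (adjusted p = 0.760). The ubiquitin hydrolase UCHL1 was above background on none of the 4 arrays. Its probe was above background after 5-aza-dC, on an array with no replicate and no siRNA. The same held for SFRP1 and GATA5.

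Few genes on the lists of stress, immune and growth genes passed the test. Of 39 interferon response and RNA sensing genes, limma called 0 (4 were higher and 1 lower at an unadjusted p below 0.05). Above background on both siUHRF1 arrays but on neither siCONT array were 3, against 268 of 17781 gene names. Of the differences, 32 were above 0, against 8834 of 17781 gene names, and the median was 0.14. The largest was IFI27 at 0.71 (adjusted p = 0.219). ISG15 differed by 0.09 and MX1 by 0.18. None passed among 18 HLA class I and antigen processing genes, 28 p53 targets, 46 DNA replication genes, 43 mitosis genes, 32 cholesterol and fatty acid synthesis genes, 17 heat shock genes, 10 metallothioneins, 29 hypoxia and glycolysis genes, 29 immediate early genes or 27 clustered protocadherins, and their medians lay between -0.09 and 0.07. At an unadjusted p below 0.05, limma put 0 genes of the HLA and mitosis lists past the threshold. The p53 list held 2 higher, the heat shock and metallothionein lists 1 higher each, and the protocadherin list 5 higher and 0 lower, with 23 of its 27 differences above 0. Over all gene names 6.06% were higher and 2.90% lower at that threshold. The DNA replication list held 1 lower, the cholesterol list 3 lower, the hypoxia list 1 higher and 4 lower, and the immediate early list 1 higher and 1 lower. CDKN1A, the p53 target that encodes p21, differed by 0.42 (adjusted p = 0.330). Of 36 ATF4 and unfolded protein response genes CBS passed (2.78%, against 0.607% of all gene names), and NUPR1 stood at 1.80 (adjusted p = 0.0727). Of 208 ZNF genes on chromosome 19, ZNF793 passed (0.481%), at least 1.57-fold higher (adjusted p = 0.00897). CBS and ZNF793 were above background on neither siCONT array, and of 818 tested gene names of that kind 75 were called higher.

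**Figure D3:**
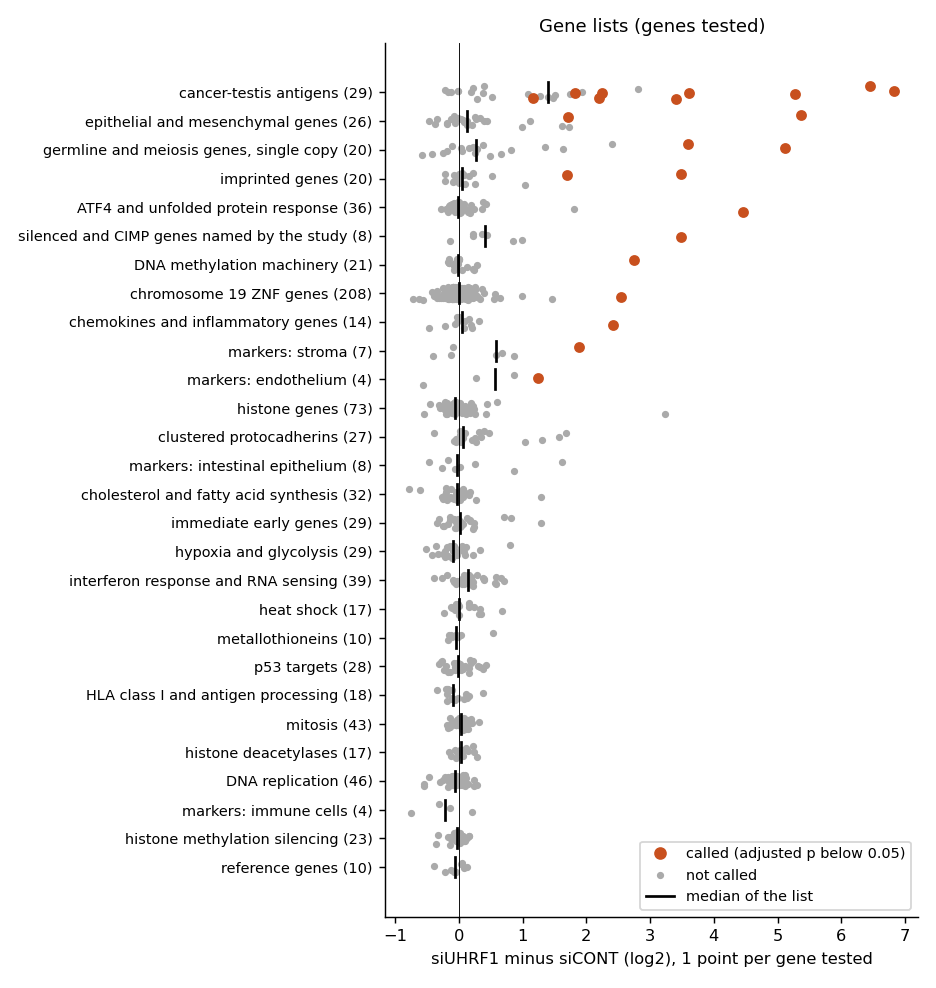
Difference between siUHRF1 and siCONT (log2, horizontal axis) for every tested gene of each list, with the number tested in parentheses; orange points passed an adjusted p of 0.05, grey points did not, and the black bar is the median of the list. The cancer-testis antigens have a median of 1.40 (0.12 with the normexp correction), and the lists without an orange point have medians between -0.22 and 0.14.

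Among inflammatory genes IL18, an interleukin made by epithelial cells, passed as 1 of 14 tested (7.14%, against 0.607% of all gene names). It read -3.82 and -3.60 in siCONT and -0.93 and -1.65 in siUHRF1, a difference of 2.42 (SE 0.323, adjusted p = 0.0451). The call was lost with quantile scaling (adjusted p = 0.0572), spike-in scaling (0.0717) and normexp (0.787), and without any one of the 8 arrays (0.0545 to 0.173). Of 26 epithelial and mesenchymal genes, TIMP2 and S100A4 passed (7.69%, against 0.607% of all gene names). TIMP2 was above background on neither siCONT array and passed the filter through groups in which it was high. Of 818 tested gene names above background on neither siCONT array, 75 were called higher. At an unadjusted p below 0.05 limma put 8 of the 26 higher and 3 lower, against 6.06% and 2.90% of all gene names. By size, 4 were over 2-fold higher with both siRNAs and 0 lower, against 199 and 13 of 17781 gene names. S100A4, a calcium-binding protein of motile cells, rose by 1.72 (SE 0.191, adjusted p = 0.0234). VIM differed by -0.37 and ZEB1 by -0.02, and KRT18 by 0.25. Of the marker lists, PDGFRB (stroma) and VWF (endothelium) passed, at least 1.12-fold higher on 1 siUHRF1 array above background and at least 1.94-fold, while a second VWF probe differed by 0.07. Both calls were lost with a replicate block (adjusted p = 0.0510 and 0.0512), and that of VWF also with spike-in scaling (0.0588). These were 1 of 7 stromal (14.3%) and 1 of 4 endothelial markers tested (25%), against 0.607% of all gene names. PDGFRB and VWF, too, were above background on neither siCONT array. Of the immune cell markers 0 of 4 passed (0 also at an unadjusted p below 0.05). COL1A2, DCN, THY1, ENG, CD3D and CSF1R were above background on none of the 4 arrays. Summed on the linear scale, relative to the 75th percentile of the array, the stromal markers came to 0.403 and 0.321 in siCONT and 0.442 and 0.785 in siUHRF1. The endothelial markers came to 0.537 and 0.506 and to 0.635 and 0.643, and the immune cell markers to 3.43 and 3.18 and to 4.13 and 2.19. The part of other cell types in these rises was not tested.

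The best measured changes were those with all 8 siRNA arrays above background. With that filter 16 probes were called, 14 of them higher. Besides GAGE2B and H19 they held genes chosen here after their values were seen. SUSD2, a sushi domain membrane protein, read -1.39 and -1.45 in siCONT and 0.57 and 0.65 in siUHRF1, a 4.08-fold rise. The serine protease PRSS8 went from -0.14 and -0.06 to 1.58 and 2.01, or 3.72-fold. INPP5D, an inositol phosphatase of blood cells, went from -2.17 and -2.24 to -0.85 on both siUHRF1 arrays, or 2.56-fold. APOE, the apolipoprotein of lipid transport, rose 2.21-fold. In each of them both siRNAs gave a level above both siCONT arrays. Falls were scarce. Of the 9 called lower, 2 were UHRF1 probes and 5 had no ranked gene symbol. BSN-DT, a divergent transcript beside BSN, read -3.93 and -3.67 in siCONT and was below background with both siRNAs, at least 1.60-fold lower (adjusted p = 0.0238). The remaining one was 1 of 3 ZMYM6 probes, at -1.03 (adjusted p = 0.0379), whereas the others differed by 0.05 and -0.02.

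The TSA arrays are separate hybridizations and share no array with the comparison above, although they carry the same 2 siRNAs, so an effect of one siRNA on other transcripts would recur there. Of the 123 probes called higher, 99 passed the filter on dim probes through the arrays without TSA, so that the TSA arrays had no part in admitting them. All 99 were higher in siUHRF1 + TSA than in siCONT + TSA without overlap. Of all 22866 probes that passed in the same way, 47.6% had a difference above 0 with TSA. The share of them without overlap was not counted. Of the 99, 92 (92.9%) were called there, against 1.95% of the 22866 probes. Deviations of the siUHRF1 and siUHRF1 + TSA arrays of the same siRNA correlated at 0.562, so these arrays are not independent. Both comparisons share the estimate of spread, and the number called in both lay between 51 and 78 when any one of the 8 arrays was left out. The median difference of the 99 was 2.55 without TSA and 2.79 with it, while that of all 22866 was -0.01 with TSA. Of the 8 probes called lower, 7 were lower with TSA and 2 were called, against 0.577%, and both of these were UHRF1 probes. CTAG1A stood at -4.88 and -6.02 in siCONT + TSA and at 2.93 and 3.34 in siUHRF1 + TSA. XAGE1A stood at -6.07 and -6.18 and at 2.63 and 2.69. For both genes the siUHRF1 + TSA arrays lay above the siCONT + TSA arrays without overlap.

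**Figure D4:**
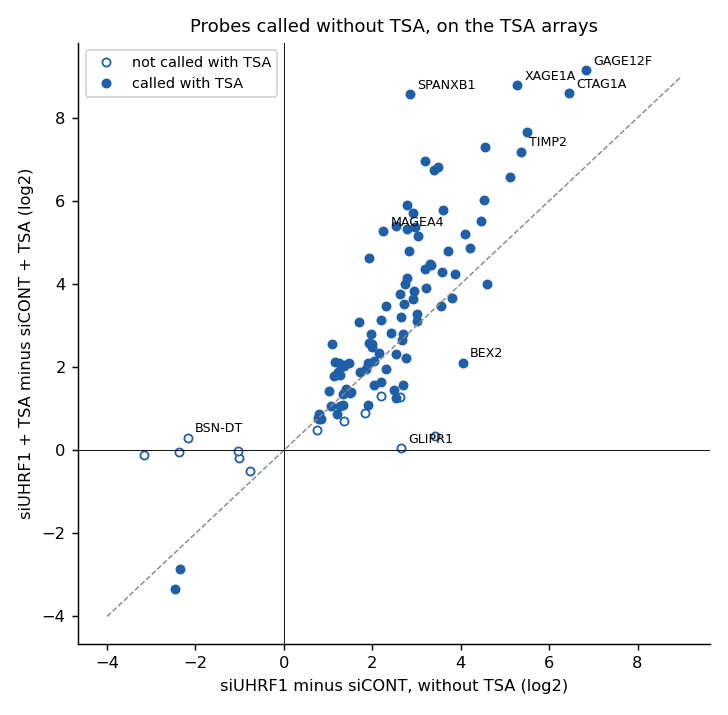
Difference between siUHRF1 + TSA and siCONT + TSA (vertical axis, log2) against that between siUHRF1 and siCONT (horizontal axis, log2) for the probes called without TSA that passed the filter on the arrays without TSA; filled circles were also called with TSA and the dashed line marks equality. All 99 rises lie above 0 on both axes, and of the falls the UHRF1 pair was called on both.

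For 12 of the 99 the difference itself changed with TSA by the test of the interaction, and it was larger in 10 and smaller in 2. The control arrays were all above background for 2 of the 12, DHRS2, named here after its values were seen, and GAGE2B, so the differences of the others are taken from signals at the background. GAGE2B differed by 4.54 without TSA and by 7.30 with it (adjusted p of the difference = 0.0299). MAGEA4 was above background on no control array in either setting, and was at least 1.12-fold higher without TSA and at least 9.30-fold with it. GLIPR1, named here after its values were seen, went the other way. It read -6.26 and -6.15 in siCONT, not above background, and -3.43 and -3.68 in siUHRF1, but between -1.81 and -1.72 on all 4 TSA arrays, so that its difference was 2.65 without TSA and 0.05 with it (adjusted p of the difference = 0.00273). BEX2 was also less raised with TSA, at 2.10 against 4.04, but this did not pass (adjusted p = 0.052). It was above background on no control array in either setting, so both differences rest on signals at the background. It was at least 4.96-fold higher without TSA and at least 3.06-fold with it.

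The genes called higher shared features that did not enter the test. Of 90 with a chromosome in RefSeq, 14 (15.6%) lay on X, against 478 of 13929 genes tested (3.43%). These 14 hold the 9 listed cancer-testis genes called higher, the listed germline gene TKTL1, and SSX4B of the SSX family. For the most part, this share therefore repeats those results. The share on X was not counted for tested genes above background on neither siCONT array. Promoter windows, from 250 bases before to 50 bases after the start of the gene, were found in the RefSeq table (GRCh38.p14) for 64 of the 108 genes called higher and for 10814 of all 17781 tested, with the most upstream start where several were listed. The median window of the genes called higher held 11 CpG sites, with an observed over expected ratio of 0.473 and 61.3% G + C, against 25 sites, 0.829 and 65.0% for all tested. A ratio above 0.6 was found in 31.2% of them (95% exact interval 20.2% to 44.1%, counting error only) and in 79.4% of all tested. Silence in control cells went with the same composition. Among tested genes above background on neither siCONT array the median ratio was 0.512 and the share above 0.6 was 40.6%, next to 0.522 and 38.1% for those of them called higher. The E-box CACGTG, searched on both strands, which read alike, was in 10 of the 64 windows (15.6%) and in 10.2% of all tested. All 10 were among the 42 windows of genes above background on neither siCONT array (23.8%), against 9.63% of the windows of all tested genes of that kind. GCGGGAA, or its complement, was in 4 (6.25%) and in 10.1%. Windows of the UHRF1 and BSN-DT genes held 36 and 47 CpG sites.

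**Figure D5:**
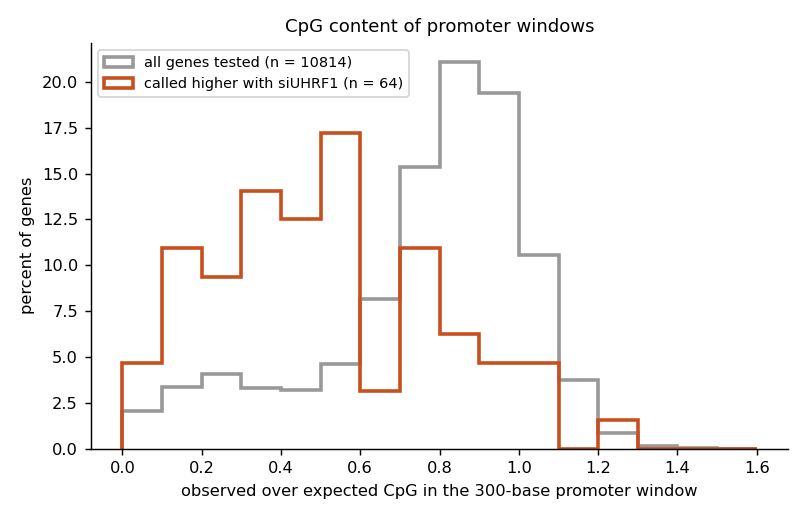
Share of genes (vertical axis, percent) by the observed over expected CpG ratio of the 300-base promoter window (horizontal axis), for 64 genes called higher with siUHRF1 and all 10814 tested genes with a window. The genes called higher have a median of 0.473 and all tested genes one of 0.829.

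The 250 bases before the start of 4 of these genes are shown, since CpG sites are what maintenance methylation acts on; CpG sites are in capitals, and the sequences are RefSeq's on GRCh38.p14, 5′ to 3′ on the strand of the gene. They lie at chrX:49560592-49560841 (plus strand), chrX:52495558-52495807 (plus), chrX:151912224-151912473 (plus) and chr9:135699482-135699731 (minus) in the order given.
GAGE12F: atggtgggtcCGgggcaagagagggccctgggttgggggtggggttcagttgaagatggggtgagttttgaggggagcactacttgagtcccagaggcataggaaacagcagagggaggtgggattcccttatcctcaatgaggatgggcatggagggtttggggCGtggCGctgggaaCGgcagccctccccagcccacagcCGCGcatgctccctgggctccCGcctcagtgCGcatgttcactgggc
XAGE1A: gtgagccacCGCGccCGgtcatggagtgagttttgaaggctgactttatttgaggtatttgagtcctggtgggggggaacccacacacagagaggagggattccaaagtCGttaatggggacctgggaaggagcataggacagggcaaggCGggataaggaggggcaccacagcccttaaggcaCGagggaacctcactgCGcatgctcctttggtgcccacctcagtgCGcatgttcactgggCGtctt
MAGEA4: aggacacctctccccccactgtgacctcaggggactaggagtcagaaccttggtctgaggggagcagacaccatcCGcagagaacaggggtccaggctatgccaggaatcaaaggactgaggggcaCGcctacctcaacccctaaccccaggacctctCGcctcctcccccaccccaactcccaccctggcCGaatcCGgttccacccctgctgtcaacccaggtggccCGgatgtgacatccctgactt
SOHLH1: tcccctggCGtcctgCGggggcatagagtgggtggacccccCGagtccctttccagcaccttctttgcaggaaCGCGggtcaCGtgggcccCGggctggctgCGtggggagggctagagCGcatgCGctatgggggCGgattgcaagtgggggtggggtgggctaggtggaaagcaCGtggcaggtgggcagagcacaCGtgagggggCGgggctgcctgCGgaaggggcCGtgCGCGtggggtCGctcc
The printed stretches hold 8, 9, 6 and 19 CpG sites. GAGE12F and XAGE1A share a run of 24 bases next to the start, cctcagtgCGcatgttcactgggc, which is in 11 of the 27305 promoters of the table, 9 of GAGE and 2 of XAGE1 genes.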

How the data were processed

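RNA of RKO cells was labelled with Cy3 and hybridized to Agilent SurePrint G3 human arrays (1 color). Per the labels, Agilent Feature Extraction 10.7 made the deposited intensity files, with background-subtracted processed signals for each spot; the authors' normalization is not given in the sources used here. The series' value table, deposited intensity values of the same spots, served as an alternative. All 8 siRNA arrays lay on 1 slide, siCONT and siUHRF1 in different columns, which cannot be told apart from the siRNA.

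Control spots and outlier spots were left out. Log2 processed signals minus the 75th percentile of each array were averaged per probe. To be tested, a probe had to be well above background, at 0.5 or more of its spots, in each array of at least 1 of the 4 siRNA groups. limma 3.58.1 (R 4.3.3) was fitted to the 8 siRNA arrays with 4 group means, and p-values were adjusted by Benjamini-Hochberg over all probes tested; the method was tested on simulated data. SE is the moderated standard error. Where no array of a group was well above background, the other group's mean was set against the higher of the array's lowest signal well above background and the probe's own signal, averaged over arrays, and is written "at least".

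Of 50599 probes, 28174 were named by RefSeq accession, 2618 by a current symbol, 620 by an older one, and 19187 keep the design's name. Named were UHRF1, DNMT1, UHRF2, ACTB, GAPDH, the 15 largest rises and up to 10 largest falls among called genes with a symbol (LOC, XLOC, lnc, ENST, A_, LINC and FLJ names were not ranked), and each called list member, at the brightest probe. The members and lists were chosen with earlier results of these data known. The number of arrays limits the precision. Alternatives covered background correction, scaling, filters, blocks, priors, tests and leaving out each array. One listed gene is not reported here.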

Additional observations from a re-analysis of the deposited data

Results flagged for a closer look

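The effect of UHRF1 depletion with TSA differed from that without it, by the interaction test in limma, for 5 of the named genes. In each the effect was larger with TSA, by 3.66 log2 units for MAGEA9, 3.28 for PAGE1, 3.01 for MAGEA4, 2.75 for GAGE2B and 2.25 for MAGEB6. The adjusted p-values were 0.000801, 0.000801, 0.00453, 0.0299 and 0.00502. Only GAGE2B was above background on the control arrays. MAGEA9, PAGE1, MAGEA4 and MAGEB6 were above background on no control array with or without TSA, and MAGEB6 and PAGE1 on no siUHRF1 array without TSA, so the sizes and p-values of these 4 rest on signals at the background.

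The 5-aza-dC array entered no fitted comparison. Of the 89 probes called higher with siUHRF1 that were above background on neither siCONT array, 79 (88.8%) were above background on it, against 772 of 1047 tested probes above background on neither siCONT array (73.7%). That array has no replicate, lay on another slide and carried no siRNA, and the part of the slide was not tested.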

How the results depend on the processing

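The 132 calls (123 higher, 9 lower) became 9 (7 higher, 2 lower) with normexp, which also left 2 cancer-testis genes called, 19 probes over 2-fold with both siRNAs and 7 called with TSA, and higher calls were 77.8% of all calls against 93.2%. Quantile scaling gave 15 lower. Without the filter on dim probes there were 67 higher and 26 lower, with 483 over 2-fold and 43 called with TSA. Probes above background on all 8 siRNA arrays gave 16 calls (14 higher, 2 lower), 36 over 2-fold and 14 called with TSA. The 4 arrays without TSA fitted alone gave 38 (35 higher, 3 lower). An unadjusted p below 0.05 held for 2113 (1388 higher, 725 lower), and with over 2-fold for 430 (389 higher, 41 lower). The methods' t-test gave 1847 (1114 higher, 733 lower) unadjusted and 0 (0 higher, 0 lower) after Benjamini-Hochberg. The cause of these shifts was not tested, apart from the fewer probes or arrays that a setting leaves.

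Leaving out 1 array gave 90 to 249 calls (249 without the second siCONT array), 84 to 144 higher and 4 to 156 lower, 252 to 679 probes over 2-fold, where fewer arrays had to clear the limit, and 51 to 78 called with TSA. UHRF1 stayed called, at -2.61 to -2.33, while 6 to 9 of the named genes lost their call. Neither ACTB nor DNMT1 was called, and their sign turned. ACTB was at 0.0206 with quantile scaling and at -0.237 to 0.144 with 1 array left out. DNMT1 was at 0.000973 with median scaling, 0.0217 with spike-in scaling, and -0.0375 to 0.0289 with 1 array left out, 0.00497 of them without siUHRF1-1.

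With a replicate block 136 probes were called (127 higher, 9 lower), and PDGFRB and VWF no longer were. The numbers do not pair the compared groups, since deviations of same-numbered siCONT and siUHRF1 arrays correlated at -0.0207. Those of siUHRF1 and siUHRF1 + TSA arrays, which share their siRNA, correlated at 0.562, and a random block for the number (correlation 0.421) gave 132 calls and 90 called with TSA. A slide or scan block could not be fitted, as all 8 arrays share 1 slide.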
